A study of Homo sapiens with 6 samples.

Results

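Small nucleolar RNAs and the long non-coding genes named for hosting them were described in BxPC-3 cells, a human pancreatic cancer cell line. Members were selected on symbol and on measured level: rows were taken whose symbol starts with SNORA, SNORD or SNHG and whose mean FPKM (fragments per kilobase, a level normalized for transcript length and library size) over 6 libraries was at least 1. This rule found 89 of 26255 rows, made up of 18 of 21 SNHG rows, 58 of 106 SNORA rows and 13 of 255 SNORD rows. Of the other rows with these names, 286 were listed at 0 in every library and 7 lay above 0 and under the limit. Because the members were chosen by the mean level, that level is given as a description. The rows just outside the limit were SNORA17 at 0.863, SNORA70G at 0.917 and SNORA23 at 0.935 mean FPKM. Those just inside were SNORA47 and SNORA71D at 1.22 and SNORA80A at 1.29. Mean levels ran from 2.07 to 294 FPKM for SNHG members (median 29.5), from 1.22 to 114 for SNORA members (median 7.10) and from 2.77 to 287 for SNORD members (median 10.6).

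The 6 libraries came from 3 groups of 2, all BxPC-3 and none with an altered gene: untreated cells (Parent), cells given a negative control (NC-1) and cells given the microRNA miR-4711-5p. Cells were harvested at 36 h, and the mRNA libraries were made with a strand-specific kit. No label says that the 2 libraries of a group came from separate cultures, so p-values measure only the spread between these libraries. The groups stand for 1 cell line, and the comparisons against Parent or with miR-4711-5p share libraries with each other. Parent cells received no transfection, so transfection as such cannot be told apart from the control RNA in NC-1 against Parent.

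Small nucleolar RNAs guide chemical changes of ribosomal RNA in the nucleolus: box C/D RNAs (SNORD) guide 2'-O-methylation by fibrillarin, and box H/ACA RNAs (SNORA) guide pseudouridylation by dyskerin. In humans most of them are cut out of introns of a host gene, which may encode a ribosomal protein or a translation factor, or may be an SNHG gene whose spliced RNA encodes no known protein. Many spliced host RNAs are removed by nonsense-mediated decay. A mature snoRNA carries no poly(A) tail, so an mRNA library is not designed to capture it.

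The members on which the snoRNA results turned are shown with the conserved boxes in capitals, read from GRCh37 (the same build as hg19, which the authors used) at the place of the symbol in GENCODE, 5′ to 3′ on the strand of the RNA. SNORA70 (in RPL10, chrX:153628622-153628756, plus strand), SNORA40 (in TAF1D, chr11:93468277-93468402, minus strand), SNORA4 (in EIF4A2, chr3:186505401-186505538, plus strand) and SNORA5B (in TBRG4, chr7:45145567-45145698, minus strand) each lay within an exon of at least 1 transcript of the host. SNORD17 (in SNX5, chr20:17943353-17943589, minus strand) lay in introns only. SNORD60 (in SNHG19, chr16:2205024-2205106, minus strand) is shown as a member of few bases. Capitals mark ACA in the last 8 bases of a SNORA, and TGATGA in the first 21 and CTGA in the last 14 bases of a SNORD; SNORA40 has no ACA there at these coordinates. On the strand of the RNA, 89.9% of 79 SNORA rows with a usable place held ACA, and among 205 SNORD rows 74.1% held TGATGA and 92.7% held CTGA in these windows. SNORD17 is long for its class.
SNORA70: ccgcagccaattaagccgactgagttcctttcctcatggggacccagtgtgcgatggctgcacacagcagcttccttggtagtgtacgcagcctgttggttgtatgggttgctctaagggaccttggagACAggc
SNORA40: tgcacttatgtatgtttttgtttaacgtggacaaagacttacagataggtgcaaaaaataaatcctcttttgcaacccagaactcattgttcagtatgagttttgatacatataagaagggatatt
SNORA4: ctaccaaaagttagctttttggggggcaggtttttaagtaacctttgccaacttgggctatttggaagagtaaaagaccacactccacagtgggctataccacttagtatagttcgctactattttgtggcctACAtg
SNORA5B: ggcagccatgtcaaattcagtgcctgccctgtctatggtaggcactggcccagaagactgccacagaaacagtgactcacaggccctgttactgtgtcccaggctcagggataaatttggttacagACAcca
SNORD17: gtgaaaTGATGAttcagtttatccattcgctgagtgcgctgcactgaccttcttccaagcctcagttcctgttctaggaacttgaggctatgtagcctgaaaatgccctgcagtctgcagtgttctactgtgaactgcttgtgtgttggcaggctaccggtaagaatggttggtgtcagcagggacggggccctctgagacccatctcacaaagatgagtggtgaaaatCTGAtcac
SNORD60: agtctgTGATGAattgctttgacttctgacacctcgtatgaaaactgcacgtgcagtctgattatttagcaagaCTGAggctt

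The microRNA given to the cells is shown with its seed in capitals, since the seed pairs with target RNAs. Its matches, CTGATGC or TGATGCA, were counted on the sense strand of the canonical GENCODE transcript of each SNHG member (the 2 words overlap in TGATGC). They occurred in 2 of 18 transcripts, those of SNHG10 and SNHG15, which is 11.1%. Among 308 other tested lncRNA genes with transcripts in the same length range of 311 to 6166 bases, 22.4% held a match. A match is a description of letters and not a site of action.
miR-4711-5p: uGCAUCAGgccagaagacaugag

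Library depth is known only in relative terms. Taking Parent replicate 1 as 1, the relative depths read from whole-read steps were 0.873 for the other Parent library, 0.746 and 0.852 for NC-1, and 1.08 and 1.21 for miR-4711-5p. The deeper miR-4711-5p libraries had 17146 and 17305 rows above 0, against 16597 to 16808 in the other 4. Epithelial markers (EPCAM, CDH1, KRT7, KRT8, KRT18 and KRT19) summed to between 5195 and 6247 FPKM in every library, a sum carried by the keratins. Within it CDH1 (E-cadherin) was at 114 and 117 FPKM in Parent, 109 and 109.6 in NC-1 and 28.3 and 30.9 in miR-4711-5p, 0.256 of Parent, and KRT19 stood at 0.553 of Parent in miR-4711-5p. The 4 blood markers (PTPRC, CD53, TYROBP and CD37) summed to at most 0.257 FPKM, the 4 fibroblast markers (COL1A1, COL3A1, DCN and LUM) to between 1.30 and 2.44, and the 3 endothelial markers (PECAM1, VWF and CDH5) to between 0.649 and 3.53. The endothelial sum was 3.23 and 3.53 in NC-1, above the 4 other libraries.

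The value of a single read on a short RNA was large. FPKM divides reads by length, and in 68 of the 71 SNORA and SNORD members (95.8%) all values were whole multiples, within 0.6%, of a gene-specific step after the relative depth was taken into account. This step was read as 1 read, so the whole numbers below are the fewest reads that give the values. One read was worth a median of 8.16 FPKM for SNORA members (range 2.03 to 14.3) and 11.5 FPKM for SNORD members (range 1.17 to 81.3), on the scale of Parent replicate 1. A single read of more than 6 FPKM in its own library lifts the mean of 6 libraries over 1, and 1 read was worth more than 6 FPKM at the depth of Parent replicate 1 in 61 members. In a deeper library the same read is worth less. SNORA43, SNORA7A and SNORA81 gave no whole numbers.

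**Figure D1:**
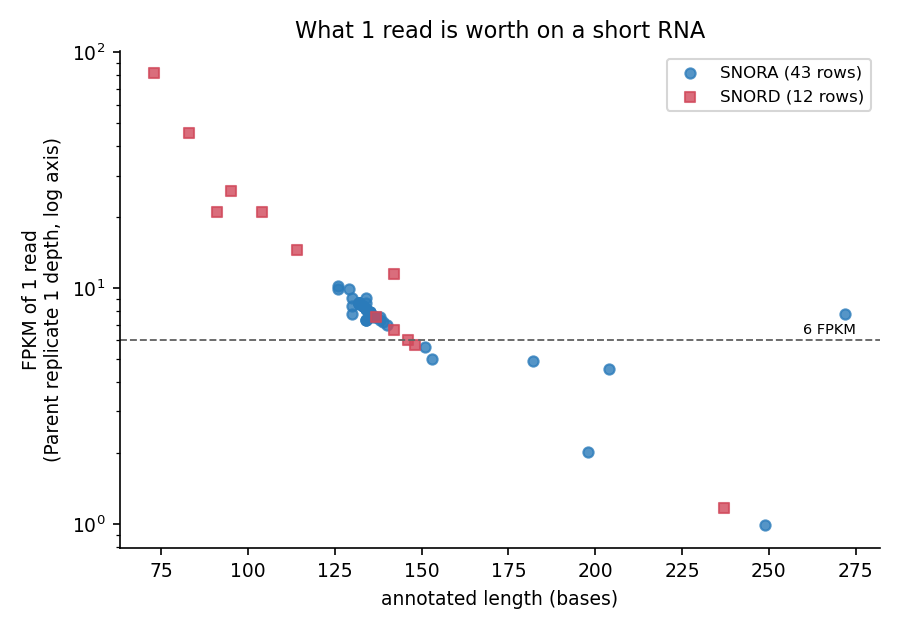
FPKM of 1 read at the depth of Parent replicate 1 (log axis) against annotated length in bases, for 43 SNORA and 12 SNORD rows with whole reads and a place on GRCh37. The dashed line marks 6 FPKM, the value that a single read must have in its own library to bring the mean of 6 libraries to 1. The highest value is 81.3 FPKM for SNORD36A at 73 bases, and longer rows mostly have lower values. Exceptions include SNORD10, at 142 bases and 11.5 FPKM, and SNORA71B, at 272 bases and 7.74 FPKM.

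The snoRNA members rested on few reads. Of the 68 members with whole reads, 17 had exactly 1 read in all 6 libraries together, 27 had at most 3 and 48 had at most 10, with a median of 5 reads per member. Of 226 values above 0 in the members with whole reads, 90 were a single read. Only 13 of the 71 members were above 0 in all 6 libraries. Listing also went with length, in numbers that have no test. Among SNORD rows with a usable place, 2 of 148 under 86 bases, 4 of 50 from 86 to under 120 bases and 6 of 8 of 120 bases or more were above 0 in any library. Among SNORA rows, which were all 120 bases or longer, 45 of 80 were above 0.

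Replicates of the SNORA rows were far apart where those of the host genes were close. The median absolute log2 ratio between the 2 libraries of a group, on log2(FPKM + 1), was 1.60 in Parent, 1.01 in NC-1 and 0.78 in miR-4711-5p for the 58 SNORA members. For the 13 SNORD members it was 0.18, 0.22 and 0.37. For the 18 SNHG members it was 0.08, 0.15 and 0.06, next to 0.08, 0.08 and 0.06 for all 12040 rows with a mean of at least 1 FPKM. A difference of more than 1 between replicates was seen in 56.9%, 50% and 48.3% of SNORA members and in 46.2%, 23.1% and 38.5% of SNORD members, against 0.507%, 0.540% and 0.473% of all rows. These figures count a row at 0 in both libraries of a group as a difference of 0. In Parent this was so for SNORD9, SNORD36A, SNORD60 and SNORD116-1, while SNORD12B, SNORD15A, SNORD89 and SNORD97 differed by 4.02 to 4.64. The low SNORD medians are thus in part those of rows without reads.

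**Figure D2:**
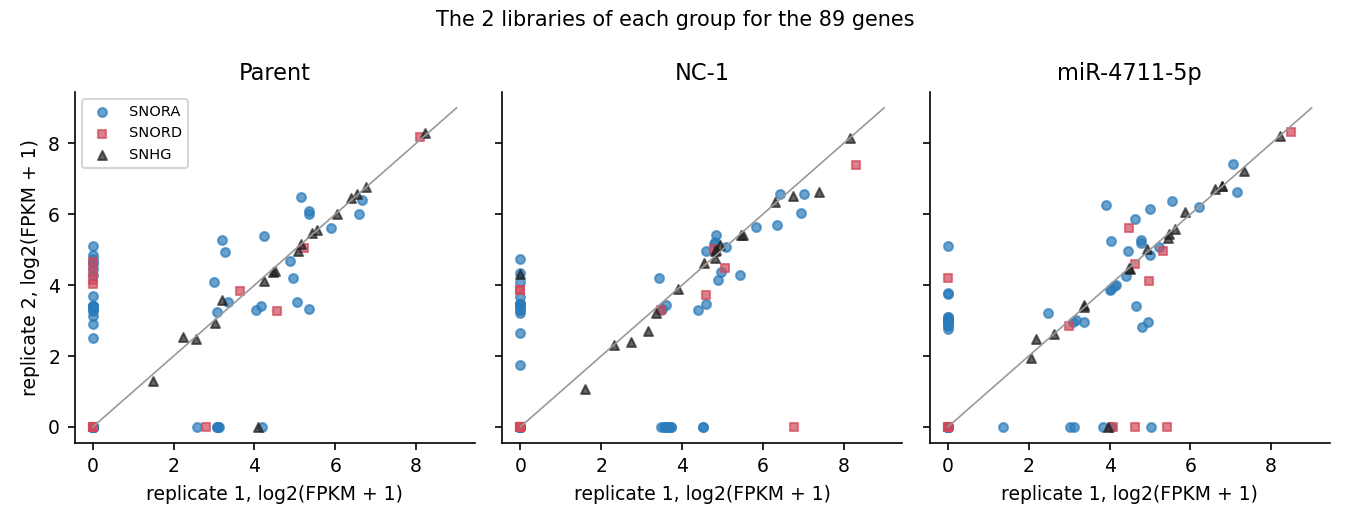
Replicate 2 against replicate 1 in log2(FPKM + 1) for the 89 members, by group, with the line of equality. SNHG genes (triangles) lie along the line except SNHG25, while many SNORA (circles) and SNORD (squares) rows lie on an axis, at 0 in 1 of the 2 libraries.

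Changes were tested with limma on log2(FPKM + 1) in 1 fit of all 12040 rows, with Benjamini-Hochberg adjustment over all of them and a threshold of 0.05. Fold changes below are ratios of mean FPKM, log2 changes are on the log2(FPKM + 1) scale, and an exact permutation test of 2 libraries against 2 could not give a two-sided p under 0.333. Many rows changed in every comparison. Against Parent, 18.7% of all rows were called higher and 24.7% lower in miR-4711-5p. Against NC-1, 18.4% were called higher and 21.2% lower in miR-4711-5p. In NC-1 against Parent, 12.1% were called higher and 15.1% lower. Calls for the members are read against these shares. With libraries rescaled to equal sums of FPKM, the median log2 change of all rows moved from -0.01, 0.00 and -0.01 to 0.11, 0.05 and 0.06 in the 3 comparisons, and the share of calls that were higher moved from 43.1% to 69.3%, from 46.5% to 58.4% and from 44.4% to 69.9%. Of the 12040 rows, 4010, 2923 and 2327 were then called higher and 1775, 2083 and 1000 lower. Counts with equal sums are read against these numbers.

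Many host genes of the SNHG class were higher in miR-4711-5p cells than in both control groups. Against Parent, 9 of 18 rose and 0 fell by limma, beside 18.7% and 24.7% of all rows. No SNHG gene fell at an unadjusted p under 0.05 either, or passed as a fall in any of the 14 other settings that were run. Against NC-1, 10 of 18 rose and 1 fell, beside 18.4% and 21.2%. The median log2 change was 0.33 against Parent and 0.37 against NC-1, where the medians of all rows were -0.01 and 0.00. The FPKM of the 18 genes summed to 901 and 903 in Parent, 898 and 838 in NC-1, and 1081 and 1065 in miR-4711-5p. Both miR-4711-5p libraries lay above all 4 others for 10 of the 18 genes, beside 23.8% of all rows, and below them for none, beside 26.3%. With libraries rescaled to equal sums of FPKM the medians were 0.47 and 0.43 and the rises 13 and 11. Of all 12040 rows, 4010 and 2923 rose under that scaling.

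**Figure D3:**
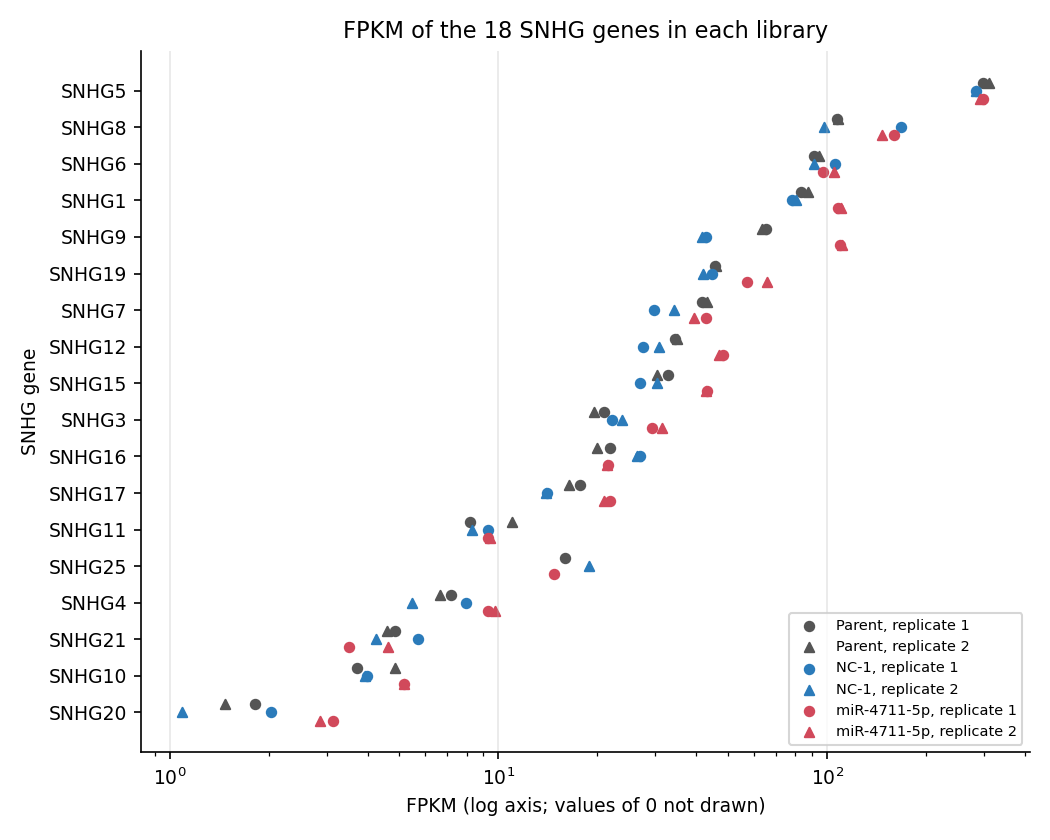
FPKM of the 18 SNHG genes in each library (log axis, values of 0 not drawn), with replicate 1 as circles and replicate 2 as triangles. For SNHG9 both miR-4711-5p libraries, at 109.6 and 111 FPKM, lie right of the Parent and NC-1 libraries, which lie between 41.7 and 65.2.

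SNHG9, a short host gene of SNORA78 (chr16:2014896-2015510 on GRCh37, plus strand), had the largest fitted log2(FPKM + 1) changes of the class in miR-4711-5p. Its FPKM was 65.2 and 63.4 in Parent, 42.7 and 41.7 in NC-1, and 109.6 and 111 in miR-4711-5p. The 3 groups did not overlap, with NC-1 lowest and miR-4711-5p highest. Its level in miR-4711-5p was 1.72-fold that in Parent (log2 change 0.77 ± 0.04 SE, adjusted p = 1.97e-05 by limma) and 2.62-fold that in NC-1 (1.37 ± 0.04, adjusted p = 3.75e-06). NC-1 stood at 0.656 of Parent (log2 change -0.60 ± 0.04, adjusted p = 0.000437).

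SNHG12 (chr1:28905050-28909644, minus strand) hosts SNORA16A and SNORA61 among the members. It read 34.5 and 35.0 FPKM in Parent, 27.6 and 30.8 in NC-1 and 48.2 and 47.0 in miR-4711-5p. Both miR-4711-5p values lay above the others and both NC-1 values below. The ratio of miR-4711-5p was 1.37 to Parent (log2 change 0.44 ± 0.06, limma adjusted p = 0.00115) and 1.63 to NC-1 (0.69 ± 0.06, adjusted p = 0.000185), and that of NC-1 to Parent was 0.841 (adjusted p = 0.0246). SNHG17, host of SNORA71A, SNORA71B, SNORA71C and SNORA71D (chr20:37048285-37064052, minus strand), had the same order of groups. Its libraries read 17.7 and 16.4 FPKM in Parent, 14 and 13.9 in NC-1 and 21.9 and 21 in miR-4711-5p. It rose 1.25-fold against Parent (limma adjusted p = 0.00445) and 1.53-fold against NC-1 (adjusted p = 0.000316), while NC-1 stood at 0.818 of Parent (adjusted p = 0.0149). In NC-1 against Parent, the call of SNHG12 was lost with equal sums of FPKM, without a filter on low values, with only the 2 groups fitted, and without any 1 library except NC-1 replicate 2. That of SNHG17 was lost without Parent replicate 1 or either NC-1 library.

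SNHG1 (chr11:62619450-62623425, minus strand) hosts a cluster of 8 box C/D RNAs, of which SNORD22 is a member here. It was measured at 83.3 and 87.5 FPKM in Parent, 78.3 and 80.4 in NC-1 and 108 and 110.3 in miR-4711-5p. The miR-4711-5p libraries stood apart, while Parent and NC-1 did not differ past the threshold (adjusted p = 0.126). Its rise was 1.28-fold over Parent (log2 change 0.35 ± 0.04, limma adjusted p = 0.000844) and 1.38-fold over NC-1 (0.46 ± 0.04, adjusted p = 0.000304). SNHG15, host of SNORA9 (chr7:45022618-45026560, minus strand), gave 32.9 and 30.3 FPKM in Parent, 27.0 and 30.3 in NC-1 and 43.2 and 42.8 in miR-4711-5p. It was 1.36-fold and 1.5-fold higher than Parent and NC-1 (limma adjusted p = 0.00219 and 0.00072). SNHG19, host of SNORD60 (chr16:2204793-2205406, minus strand), was at 45.6 and 46.0 FPKM in Parent, 44.8 and 41.9 in NC-1 and 57.0 and 65.6 in miR-4711-5p. That was 1.34-fold and 1.41-fold higher than Parent and NC-1 (limma adjusted p = 0.00344 and 0.00182), although the miR-4711-5p libraries differed more between themselves than those of the controls.

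SNHG3, SNHG4 and SNHG20 rose too, but each overlaps a tested gene on the same strand, so that reads of the pair may have been shared. SNHG3, within the span of RCC1, read 20.9 and 19.5 FPKM in Parent, 22.2 and 23.8 in NC-1 and 29.4 and 31.5 in miR-4711-5p. It was 1.5-fold over Parent and 1.32-fold over NC-1 (limma adjusted p = 0.000469 and 0.00281). RCC1, which loads Ran with GTP, stood at 0.939 of Parent (adjusted p = 0.21) and 1.24-fold over NC-1 (adjusted p = 0.00332). SNHG4, which overlaps MATR3, was at 7.17 and 6.62 in Parent, 7.95 and 5.47 in NC-1 and 9.32 and 9.77 in miR-4711-5p, with adjusted p of 0.0466 and 0.0329 by limma. SNHG20, which overlaps SEC14L1, was low, at 1.82 and 1.48, 2.04 and 1.09, and 3.13 and 2.86 FPKM. Its ratios of mean FPKM, 1.82 to Parent and 1.92 to NC-1, had adjusted p of 0.0324 and 0.0234 by limma. Both SNHG4 and SNHG20 lost the call against Parent when any Parent or miR-4711-5p library was left out. Against NC-1 both lost it without NC-1 replicate 2 or either miR-4711-5p library, and SNHG4 also without either Parent library or with only the 2 groups fitted. Without a filter on low values all 4 of these calls were lost. Without the 3 genes that share a strand with another, 6 genes rose against Parent and 7 against NC-1.

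SNHG7 and SNHG16 separated NC-1 from the other groups. SNHG7 stood at 41.6 and 43.0 FPKM in Parent, 29.7 and 34.1 in NC-1 and 42.8 and 39.4 in miR-4711-5p. Its NC-1 libraries were the lowest, at 0.754 of Parent (limma adjusted p = 0.00948), and miR-4711-5p was 1.29-fold over NC-1 (adjusted p = 0.00824) and 0.971 of Parent (adjusted p = 0.668). The first of these calls was lost without either Parent library and the second without miR-4711-5p replicate 1. SNHG16, host of SNORD1A, SNORD1B and SNORD1C, went the other way, at 21.8 and 19.9 in Parent, 26.9 and 26.3 in NC-1 and 21.5 and 21.4 in miR-4711-5p. It was 1.28-fold higher in NC-1 than in Parent (limma adjusted p = 0.00697) and in miR-4711-5p at 0.807 of NC-1 (adjusted p = 0.00591).

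In NC-1 against Parent, 1 SNHG gene rose (SNHG16) and 4 fell (SNHG7, SNHG9, SNHG12 and SNHG17), beside 12.1% and 15.1% of all rows. The count of 5 was 2 without Parent replicate 1, 3 without Parent replicate 2 and 3 without NC-1 replicate 1. The median log2 change of the class was -0.08, near that of all rows at -0.01.

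**Figure D4:**
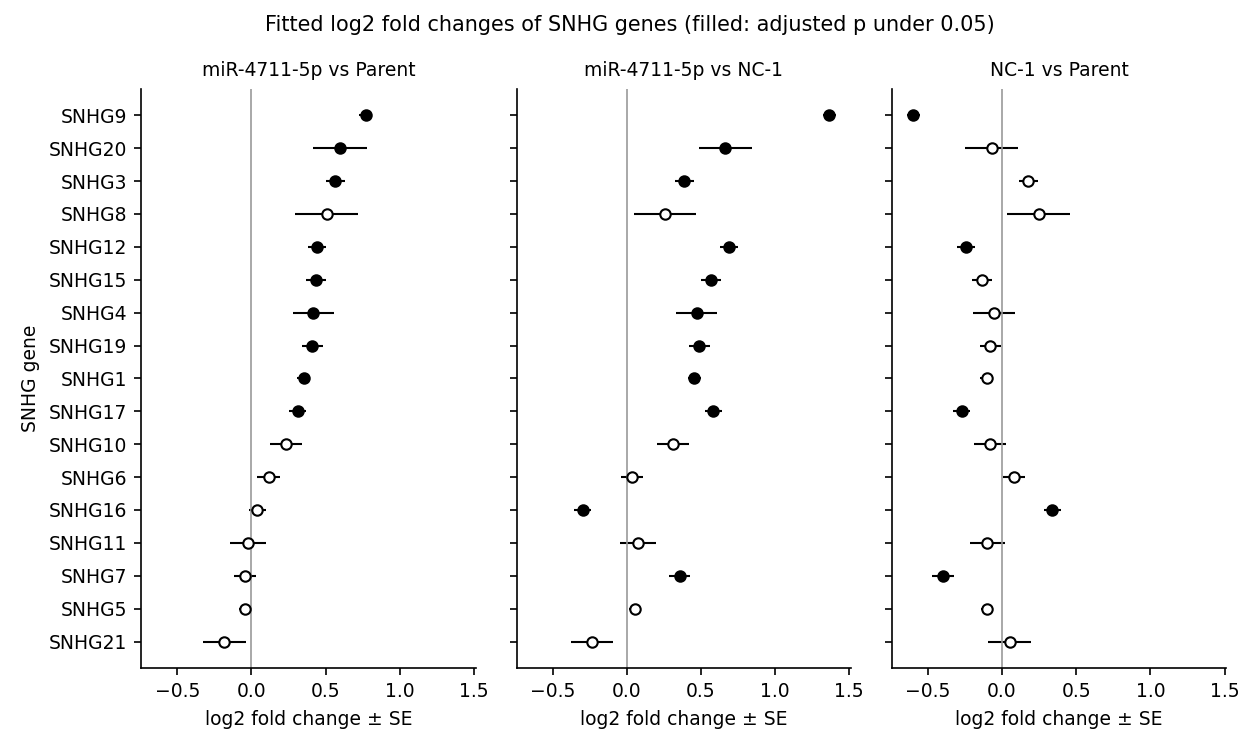
Fitted log2 fold change with its standard error for 17 SNHG genes in the 3 comparisons, with filled points for an adjusted p under 0.05 (limma). SNHG25, with a standard error of 1.89, is left out. In the panels of miR-4711-5p the filled points lie right of 0, except SNHG16 against NC-1, and SNHG9 lies farthest out at 0.77 and 1.37.

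The most abundant SNHG gene did not pass the test in any comparison. SNHG5 read 298 and 311 FPKM in Parent, 283 and 284 in NC-1 and 298 and 292 in miR-4711-5p, and its groups overlapped between Parent and miR-4711-5p. SNHG6 was at 91.3 and 94.3, 106 and 90.9, and 96.8 and 105 FPKM, and SNHG8, host of SNORA24, was at 107 and 108, 167 and 97.6, and 159.8 and 147. The NC-1 replicates of SNHG8 lay on both sides of the Parent values, and its 1.43-fold difference from Parent had a limma adjusted p of 0.0895. SNHG10 and SNHG11 had log2 changes of 0.23 ± 0.11 and -0.02 ± 0.12 against Parent. SNHG21 had -0.18 ± 0.14 (limma adjusted p = 0.34). SNHG25, which holds SNORD104 and has a canonical GENCODE transcript of 311 bases, was listed at 16.0, 0, 0, 18.9, 14.7 and 0 FPKM. The values above 0 are equal once relative depth is taken into account, which would be 1 read each. A step of 16.0 FPKM is large for this length, beside 1.17 for SNORD17 at 237 bases and 7.74 for SNORA71B at 272. The number of reads behind SNHG25 is therefore uncertain.

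Most SNHG genes with a promoter entry had a run of C or T near the start site, a feature that the rule did not use. Genes of the translation machinery often start inside a run of pyrimidines. A run of at least 6 bases C or T reaching within 5 bases of the annotated start, on the strand of the gene, was present in 10 of 14 SNHG members with an entry among the RefSeq promoters (71.4%). It was present in 22.2% of 8974 tested rows, in 22.8% of all 27303 promoters and in 77.3% of 66 tested ribosomal protein genes. The median run was 6 bases in the SNHG members, the limit itself, 11 in the ribosomal protein genes and 4 in the tested rows. A run counted here may begin after the annotated start, as in SNHG1 and SNHG17. SNHG6, SNHG9, SNHG15 and SNHG25 had no entry. The 80 bases around the start of 4 genes are printed from RefSeq promoters on GRCh38.p14, on the strand of the gene, with the run in capitals: SNHG12 (chr1:28581844-28581923, minus), SNHG1 (chr11:62855856-62855935, minus) and SNHG17 (chr20:38435299-38435378, minus), which rose, and SNHG5 (chr6:85678704-85678783, minus), which did not pass the test. Among genes with the run, SNHG1, SNHG3, SNHG4, SNHG12, SNHG17 and SNHG19 rose in miR-4711-5p over Parent and NC-1. SNHG7 rose and SNHG16 fell against NC-1 only, and SNHG5 and SNHG8 were called in no comparison. Among genes without it, SNHG20 rose over Parent and NC-1, and SNHG10, SNHG11 and SNHG21 were called in no comparison. Whether the run goes with a change was not tested.
SNHG12: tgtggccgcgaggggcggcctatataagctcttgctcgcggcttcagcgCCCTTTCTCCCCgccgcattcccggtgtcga
SNHG1: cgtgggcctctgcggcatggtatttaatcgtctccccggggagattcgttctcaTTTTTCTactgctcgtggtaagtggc
SNHG17: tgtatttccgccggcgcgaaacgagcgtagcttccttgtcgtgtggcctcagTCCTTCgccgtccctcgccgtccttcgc
SNHG5: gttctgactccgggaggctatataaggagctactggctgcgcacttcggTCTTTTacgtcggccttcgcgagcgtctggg

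Among the 71 SNORA and SNORD members, few passed the test. Against Parent, 5 rose and 0 fell in miR-4711-5p by limma (1 fell at an unadjusted p under 0.05), beside 18.7% and 24.7% of all rows. Against NC-1, 4 rose and 2 fell, beside 18.4% and 21.2%. In NC-1 against Parent, 4 rose and 2 fell, beside 12.1% and 15.1%. The shares called were below those of all rows in each direction. Several calls rested on values of 1 or 2 reads that were alike between replicates. When only members with at least 10 reads over the 4 libraries compared were counted, a choice made after seeing the data, 2 of 19, 1 of 16 and 2 of 12 members were called.

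The smallest p-values among the snoRNA members belonged to rows of very few reads. SNORA4 was listed at 0 in Parent and miR-4711-5p and at 10.1 and 8.86 FPKM in NC-1, which is 1 read in each NC-1 library. Its limma adjusted p was 5.74e-06 for miR-4711-5p against NC-1. SNORA45A had 1 and 1 reads in Parent, 0 and 0 in NC-1 and 2 and 2 in miR-4711-5p, with an adjusted p of 3.18e-06 against NC-1. SNORA5B had 0 and 0, 2 and 3, and 1 and 1 reads, and SNORA52 had 0 and 0, 2 and 0, and 4 and 1. SNORA62 had 1 and 0 reads in Parent, 0 and 0 in NC-1 and 1 and 2 in miR-4711-5p. SNORA68 had 2 and 1, 0 and 1, and 4 and 4 reads, with a limma adjusted p of 0.0307 against NC-1. This call was lost without either Parent or either miR-4711-5p library. It was also lost with a pseudocount of 0.1, without a filter on low values, with a robust fit and with only the 2 groups fitted. A total of 0 reads over the 2 libraries of a group has an exact 95% upper limit of 3.69 reads. The exact 95% intervals of the group totals overlapped in each of these rows, which is not a test of a difference. Among these rows a read ratio was computed only for SNORA68 in miR-4711-5p against Parent, from 8 and 3 reads. It was 2.18, with an exact 95% interval of 0.524 to 12.8. No fold change of FPKM is given for these rows, and differences of this size were not taken as resolved from counting error at this depth.

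**Figure D5:**
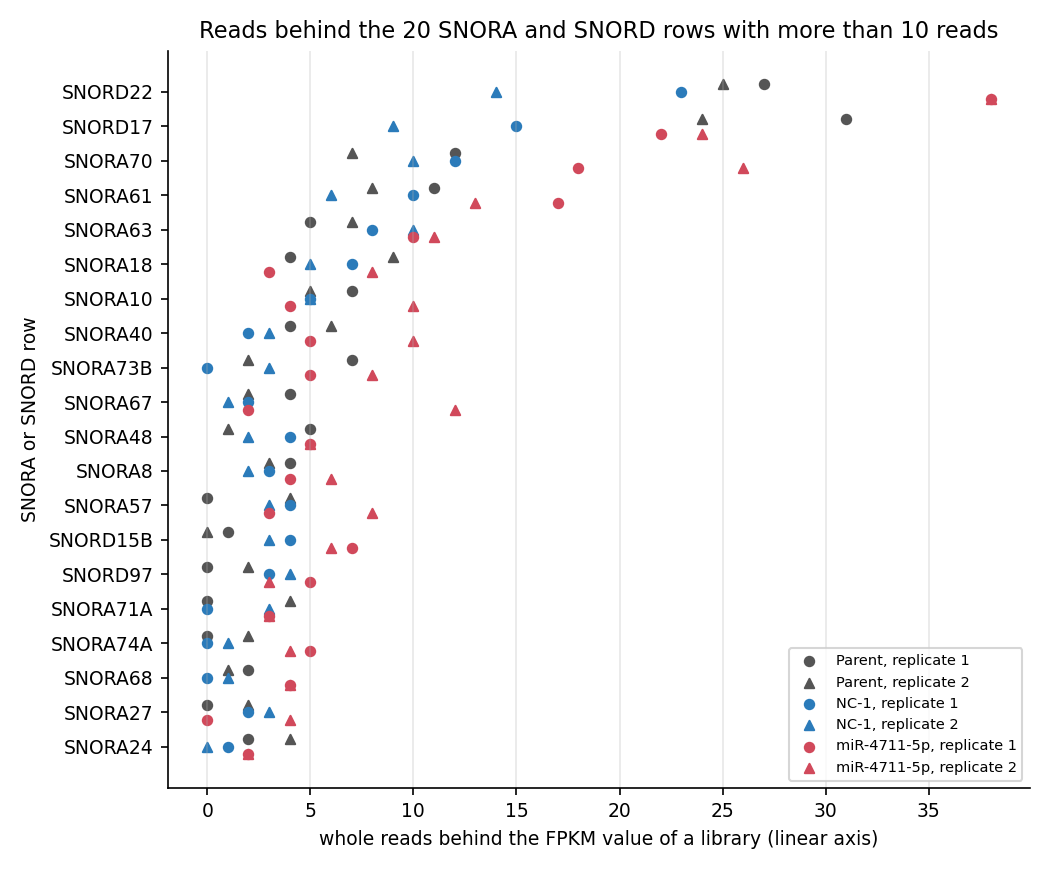
Whole reads behind the FPKM of each library (linear axis) for the 20 SNORA and SNORD members with more than 10 reads in all, with replicate 1 as circles and replicate 2 as triangles. SNORD22 reaches 38 reads in each miR-4711-5p library, and most members lie under 10 reads in every library.

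SNORA70, which lies in RPL10 and is printed above, had enough reads to compare. Its FPKM was 95.4 and 63.7 in Parent, 128 and 93.3 in NC-1 and 132 and 171 in miR-4711-5p, from 12 and 7, 12 and 10, and 18 and 26 reads. Both miR-4711-5p values lay above the others, while Parent and NC-1 overlapped. The mean was 1.91-fold over Parent (log2 change 0.94 ± 0.22, limma adjusted p = 0.0125) and 1.37-fold over NC-1 (adjusted p = 0.14). The ratio of reads per depth to Parent was 1.89, with an exact 95% interval for counting error of 1.08 to 3.44. Its call against Parent was lost without a filter on low values, with a robust fit of the spread, and without Parent replicate 2 or miR-4711-5p replicate 2. RPL10, the host, moved the other way, at 549 and 531, 535 and 519, and 448 and 451 FPKM (0.832 of Parent, limma adjusted p = 0.00175). The direction for RPL10 was the same under each scaling that was run.

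SNORD15B, an RNA in an intron of RPS3, had 1 and 0 reads in Parent, 4 and 3 in NC-1 and 7 and 6 in miR-4711-5p. These gave 6.02 and 0, 32.2 and 21.2, and 38.9 and 29.9 FPKM, and Parent lay below both other groups. The read ratio of miR-4711-5p to Parent was 10.6 with an exact 95% interval of 1.60 to 452, and the limma adjusted p was 0.00729. In NC-1 against Parent the adjusted p was 0.0195. The first call was lost with a robust fit or without miR-4711-5p replicate 1. The second was lost with a robust fit, without a filter on low values, or without either NC-1 library. The neighbouring SNORD15A, also in RPS3, had no such order, at 0 and 3, 0 and 2, and 3 and 0 reads. RPS3 itself was at 1053 and 1015 FPKM in Parent, 1070.1 and 954 in NC-1 and 845 and 895 in miR-4711-5p, 0.842 of Parent (limma adjusted p = 0.0153), a call lost with equal sums, without a filter, and without either Parent library or miR-4711-5p replicate 1.

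SNORD17, the longest SNORD printed above, fell in NC-1. Its FPKM was 36.2 and 32.1 in Parent, 23.3 and 12.3 in NC-1 and 23.8 and 23.2 in miR-4711-5p, from 31 and 24, 15 and 9, and 22 and 24 reads. Parent lay above the other groups. NC-1 stood at 0.522 of Parent (log2 change -0.96 ± 0.24, limma adjusted p = 0.026), with a read ratio of 0.512 and an exact 95% interval of 0.303 to 0.841. This call was lost with a robust fit, without a filter, with only the 2 groups fitted, and without either Parent or either miR-4711-5p library. For miR-4711-5p against Parent the ratio was 0.684 with an interval of 0.452 to 1.03. SNX5, its host, was at 67.5 and 70.0, 68.2 and 62.8, and 60.7 and 63.2 FPKM and passed the test in no comparison.

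SNORD22 had the highest FPKM of the snoRNA members. RefSeq places it among the RNAs of SNHG1. It was at 274 and 291 FPKM in Parent, 314 and 167 in NC-1 and 356 and 319.9 in miR-4711-5p, from 27 and 25, 23 and 14, and 38 and 38 reads. The miR-4711-5p libraries were the highest, but the NC-1 replicates spanned the Parent values. Its ratio was 1.20 to Parent (limma adjusted p = 0.431) and 1.41 to NC-1 (adjusted p = 0.113), and the exact 95% interval of the read ratio to Parent ran from 0.829 to 1.74. The log2 change against Parent was 0.26 ± 0.25 for SNORD22 and 0.35 ± 0.04 for SNHG1, so a difference between the RNA and its host could not be resolved.

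SNORA61 in SNHG12 gave 99.96 and 83.2 FPKM in Parent, 122 and 64.1 in NC-1 and 143 and 97.9 in miR-4711-5p. Its groups overlapped, with log2 changes of 0.37 ± 0.29 against Parent and 0.41 ± 0.29 against NC-1. SNORA63, in the translation factor gene EIF4A2, was at 39.7 and 63.7, 85.2 and 93.3, and 73.4 and 72.4 FPKM, and was 1.73-fold higher in NC-1 than in Parent (limma adjusted p = 0.0189). The read ratio was 1.76 with an exact 95% interval of 0.802 to 4, and the call was lost with a robust fit, without a filter on low values or without either NC-1 library. EIF4A2 itself was 1.06-fold in this comparison (adjusted p = 0.195) and rose 1.26-fold in miR-4711-5p over Parent (adjusted p = 0.000863 by limma).

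TAF1D, a subunit of the RNA polymerase I factor SL1, holds 5 members, SNORA1, SNORA8, SNORA18, SNORA25 and SNORA40. SNORA40 was at 39.5 and 67.9 FPKM in Parent, 26.5 and 34.8 in NC-1 and 45.6 and 81.8 in miR-4711-5p, and the groups of NC-1 and miR-4711-5p did not overlap. It was 2.08-fold over NC-1 (limma adjusted p = 0.0445), with a read ratio of 2.09 and an exact 95% interval of 0.723 to 7.36. This call was lost with a robust fit, without a filter on low values, and without either NC-1 library or miR-4711-5p replicate 2. SNORA18 from the same gene gave 34.4 and 88.7, 80.8 and 50.6, and 23.8 and 57.0 FPKM, with a log2 change against NC-1 of -0.77 ± 0.51. TAF1D was at 27.7 and 36.2, 35.8 and 33.8, and 39.1 and 37.4 FPKM and passed the test in no comparison.

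The other members of the highest level varied as much. SNORA10 in RPS2 was at 58.7 and 48.0, 56.2 and 49.2, and 30.9 and 69.4 FPKM, so its miR-4711-5p replicates lay on both sides of all others. SNORA48 in EIF4A1 ranged from 9.10 to 42.6 FPKM and SNORA67 in the same gene from 8.86 to 75.0. SNORD10, also in EIF4A1, was at 0 to 47.5 FPKM, SNORD97 in EIF4G2 at 0 to 31.2, and SNORD94 in PTCD3 at 6.25 to 22.6. SNORD36A in RPL7A had a single value above 0, of 109 FPKM in NC-1 replicate 1, which is 1 read. None of these passed the test in any comparison.

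The total of snoRNA reads was small in every library. Summed over the 68 members with whole reads it was 145 and 153 in Parent, 126 and 113 in NC-1 and 199 and 239 in miR-4711-5p. Per unit of relative depth these were 145 and 175, 169 and 133, and 184 and 198. The miR-4711-5p libraries were the highest and also the deepest. The number of members above 0 was 30 and 45, 35 and 42, and 41 and 46, so Parent replicate 1 had the fewest although it was the third deepest library.

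A host gene was found for 64 of the 71 snoRNA members, in 46 genes, by GENCODE on GRCh37 or, where its symbol had no usable single place there, by RefSeq neighbours. Where more than 1 gene held a member, only the host of highest mean FPKM was counted. By this count SNHG genes hosted 10 of the members and ribosomal protein genes 17. SNORA73B and SNORA74A, counted under RCC1 and MATR3, also lie in SNHG3 and SNHG4. At their GENCODE places 28 members lay within an exon of a host transcript, 6 overlapped an exon and 18 lay in introns only. For members inside an exon, reads of the snoRNA and of the host transcript cannot be told apart.

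Other genes that host snoRNAs are given beside the SNHG genes, with no test of the difference between them. Of 100 tested host genes outside the SNHG symbols, 11 rose and 32 fell in miR-4711-5p against Parent, beside 18.7% and 24.7% of all rows. Against NC-1 22 rose and 18 fell, near the 18.4% and 21.2% of all rows. In NC-1 against Parent 4 rose and 27 fell, beside 12.1% and 15.1%. The median log2 changes of the list were -0.10, 0.01 and -0.10. With equal sums of FPKM the first of these became 0.04, with 28 rises and 13 falls, beside 4010 and 1775 of all 12040 rows. No direction is therefore given for this list. Among the 25 of them that encode ribosomal proteins, none rose and 14 fell against Parent, with a median of -0.16 (-0.02 and 4 falls with equal sums). RPS2, which lies beside SNHG9 on the other strand, was at 4240.1 and 4019, 3559 and 3539.8, and 3115 and 3274 FPKM, or 0.774 of Parent (limma adjusted p = 0.000654). RPSA, host of SNORA6 and SNORA62, was at 0.814 of Parent (adjusted p = 0.00108 by limma). Among the others, TSR1, a factor of small subunit maturation, rose 1.24-fold over Parent and 1.40-fold over NC-1 (limma adjusted p = 0.00197 and 0.000337). AMMECR1 had the largest called fall of the list, to 0.569 of Parent (adjusted p = 0.000211), and was at 0.477 of Parent in NC-1 as well (adjusted p = 0.000437 by limma).

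Of the well-known host genes outside the SNHG symbols, which are mostly non-coding, GAS5, ZFAS1, DANCR, EPB41L4A-AS1 and TAF1D were tested, and MEG8 was listed at 0. By limma 0 rose and 1 fell against Parent, beside 18.7% and 24.7% of all rows. Against NC-1 0 passed the test (2 were higher at an unadjusted p under 0.05), beside 18.4% and 21.2%. In NC-1 against Parent 0 rose and 2 fell, beside 12.1% and 15.1%. With equal sums of FPKM the counts of this list were 3 rises and 1 fall, 2 rises, and 1 fall. All 12040 rows then had 4010 rises and 1775 falls, 2923 rises, and 1000 falls. DANCR read 51.3 and 46.6 FPKM in Parent, 37 and 41.2 in NC-1 and 34.3 and 35.5 in miR-4711-5p. It fell to 0.714 of Parent (limma adjusted p = 0.00167), and NC-1 stood at 0.8 (adjusted p = 0.0172). ZFAS1 was at 222 and 217, 189 and 189.9, and 198 and 215 FPKM, lower in NC-1 than in Parent (limma adjusted p = 0.0188). This call was lost with equal sums or without any 1 Parent or NC-1 library, and that of DANCR in NC-1 without Parent replicate 1, without NC-1 replicate 1 or without a filter. GAS5 was at 103 and 112 FPKM in Parent, 94.0 and 106 in NC-1 and 109.9 and 118 in miR-4711-5p, with overlapping groups. None of the 8 tested scaRNA rows, guides of the Cajal body, passed the test in any comparison, and 1 had an unadjusted p under 0.05, against NC-1.

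The proteins that bind the guides differed among themselves. Fibrillarin (FBL), the methyltransferase of box C/D particles, was at 218 and 208 FPKM in Parent, 191 and 171 in NC-1 and 142 and 139 in miR-4711-5p. Its groups did not overlap, and it fell to 0.660 of Parent (log2 change -0.60 ± 0.06, limma adjusted p = 0.000267) and 0.778 of NC-1 (adjusted p = 0.00299). The partner NOP56 stood at 185 and 181, 157 and 158, and 191 and 191 FPKM, level with Parent (adjusted p = 0.214) and 1.22-fold over NC-1 (adjusted p = 0.00121 by limma). NOP58 and NHP2L1 (SNU13) had log2 changes of -0.03 ± 0.05 and -0.05 ± 0.04 against Parent. All 4 box C/D proteins were lower in NC-1 than in Parent by the test, beside 15.1% of all rows. With equal sums of FPKM 1 of them was lower, beside 1000 of all 12040 rows. The calls of NOP58 and NHP2L1 were lost without any 1 of the 6 libraries, and that of FBL without any 1 except NC-1 replicate 1.

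Among the box H/ACA proteins, the pseudouridine synthase dyskerin (DKC1) was at 92.0 and 97.9, 82.0 and 78.6, and 83.4 and 86.4 FPKM. DKC1 and NHP2 were lower in miR-4711-5p than in Parent, at 0.894 and 0.872 (limma adjusted p = 0.037 and 0.0258), and lower in NC-1 than in Parent, at 0.846 and 0.807 (adjusted p = 0.0141 and 0.00877). GAR1 rose 1.11-fold over Parent and 1.14-fold over NC-1 (adjusted p = 0.0311 and 0.0178), with libraries at 25.1 and 25, 24.6 and 24.6, and 28.1 and 27.8 FPKM. Each of these calls of GAR1 was lost without any 1 library of the 2 groups compared. NOP10 passed the test in no comparison. With equal sums of FPKM, DKC1 and NHP2 in miR-4711-5p were no longer called against Parent. These 2 calls were also lost without either miR-4711-5p library, and without Parent replicate 2 for DKC1 or Parent replicate 1 for NHP2. In NC-1 the call of DKC1 was lost with equal sums or without Parent replicate 2 or NC-1 replicate 2, and that of NHP2 without Parent replicate 1.

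Of 12 assembly factors of the particles that were tested, 3 rose and 2 fell against Parent, beside 18.7% and 24.7% of all rows. Against NC-1 6 rose and none fell, beside 18.4% and 21.2%. In NC-1 against Parent none rose and 4 fell, beside 12.1% and 15.1%. The medians of the list were 0.02, 0.16 and -0.12. With equal sums of FPKM its counts were 6 rises and 1 fall, 6 rises, and 2 falls, with medians of 0.16, 0.21 and -0.05. All 12040 rows then had 4010 rises and 1775 falls, 2923 rises, and 1000 falls. COIL (coilin, of the Cajal body), ZNHIT6 and NAF1 (a box H/ACA assembly factor) rose 1.35-fold, 1.32-fold and 1.28-fold over Parent (limma adjusted p = 0.00298, 0.00299 and 0.0349). The call of NAF1 was lost without a filter, with only the 2 groups fitted, and without any 1 library except miR-4711-5p replicate 2. SHQ1, the chaperone of dyskerin, fell to 0.709 of Parent (adjusted p = 0.00339 by limma).

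Genes of the U3 snoRNP and the small subunit processome, where box C/D RNA U3 acts, were low in NC-1. Of 16 genes, none rose and 9 fell in NC-1 against Parent, beside 12.1% and 15.1% of all rows. In miR-4711-5p 8 rose and none fell against NC-1, beside 18.4% and 21.2%. Against Parent 1 rose and 1 fell in miR-4711-5p, beside 18.7% and 24.7%. The comparisons with NC-1 share its libraries. With equal sums of FPKM the counts of the list, in the same order, were 5 falls, 10 rises, and 5 rises with 0 falls. All 12040 rows then had 1000 falls, 2923 rises, and 4010 rises with 1775 falls. RRP9, a U3-specific protein, was at 35.8 and 33.2 FPKM in Parent, 22.3 and 24.6 in NC-1 and 33.4 and 32.1 in miR-4711-5p. It stood at 0.681 of Parent in NC-1 (limma adjusted p = 0.00252) and in miR-4711-5p at 1.40-fold over NC-1 (adjusted p = 0.00154). NOP14, IMP3 and IMP4 stood at 0.752, 0.744 and 0.779 of Parent in NC-1 (adjusted p = 0.004, 0.00323 and 0.00281 by limma). UTP3 rose in miR-4711-5p over both, 1.17-fold and 1.12-fold (adjusted p = 0.01 and 0.0356 by limma), and both calls were lost without either miR-4711-5p library, the second also without either NC-1 library.

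Factors of nonsense-mediated decay, which removes many spliced snoRNA host RNAs, had 14 tested members. Against Parent 1 rose (SMG5, 1.13-fold, limma adjusted p = 0.0385) and none fell, and this call was lost without a filter and without any 1 Parent or miR-4711-5p library. Of all rows, 18.7% rose and 24.7% fell against Parent. Against NC-1 5 of the factors rose and none fell, beside 18.4% and 21.2% of all rows. In NC-1 against Parent 1 rose and 5 fell, beside 12.1% and 15.1%. With equal sums of FPKM the rises of the list against Parent were 8, beside 4010 of all 12040 rows. EIF4A3, an exon junction protein, read 78.3 and 76.3 FPKM in Parent, 61.4 and 60.6 in NC-1 and 81.8 and 82.9 in miR-4711-5p. It was 1.35-fold over NC-1 (limma adjusted p = 0.000286) and 1.07-fold over Parent (adjusted p = 0.119). UPF1, the helicase of this pathway, was at 48.5 and 44.1, 36.9 and 35.7, and 47.1 and 45.8 FPKM, 1.28-fold over NC-1 (limma adjusted p = 0.00315). Its level in miR-4711-5p did not differ from Parent past the threshold (adjusted p = 0.948).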

How the data were processed

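RNA-seq of BxPC-3 cells (3 groups of 2 libraries) was measured with a stranded mRNA kit in single-end mode. Alignment by the authors was to hg19 (TopHat, Bowtie2, SAMtools). The deposited values are FPKM, 1 per gene symbol, normalized for length and library size. Per the submitters' processing notes the versions were TopHat2 2.1.1, Bowtie2 2.3.5.1, SAMtools 1.2 and Cufflinks 2.2.1. The notes and the study's methods differ in versions. The gene annotation and the strand option were not given in the sources used here. Grouping followed the titles, and no sample column was left unmapped.

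Rows with a mean of at least 1 FPKM (12040) were fitted on log2(FPKM + 1) with limma 3.58.1 in R 4.3.3 (trend, 3 residual degrees of freedom), two-sided with Benjamini-Hochberg adjustment at 0.05. FPKM are not counts, so no count test was the main result. The script was tested on simulated data with known changes. Tables and figures were made with Python 3.11.15, pandas 2.3.3, scipy 1.17.1 and matplotlib 3.10.9. Whole reads were sought as the largest step that makes the 6 values of a row whole numbers at the relative depths, within 0.6% and at most 0.15 reads. Intervals are exact and cover counting error only. The members and gene lists were chosen with earlier results of these data known. Named genes were every SNHG member, the 8 SNORA and 8 SNORD members of highest mean FPKM, every snoRNA called in any comparison, their hosts, the core proteins of both particles, and at most 4 called genes per related list and comparison with the largest change. GAS5 was named outside this rule, after its values were seen. Coordinates came from GENCODE v44 lifted to GRCh37, taken where the chromosome and host matched RefSeq. The sequence of SNORD15B is not reported here. Alternatives were another pseudocount, no filter, rescaled libraries, a robust fit, only 2 groups, a replicate block and leaving out each library.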

Additional observations from a re-analysis of the deposited data

How the results depend on the processing

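The SNHG counts of 9, 11 and 5 calls (the treated cells compared with Parent, then with NC-1, and last NC-1 with Parent) stayed within 1.5 times under every setting, except that leaving out a library gave 2 to 5 for NC-1 against Parent (7 to 10 and 8 to 12 for the others). The snoRNA counts of 5, 6 and 6 calls depended more on the processing. Without a filter on low values they were 3, 3 and 3, with a robust fit 2, 3 and 3, and with at least 10 reads (an alternative chosen after seeing the data) 2, 1 and 2. Fitting only the groups of a comparison gave 9 against Parent, 9 against NC-1 and 6 for the controls. Leaving out a library gave 4 to 14, 7 to 14 and 6 to 15. With a replicate block the snoRNA counts were 8, 8 and 9 and the SNHG counts 9, 11 and 5. The numbers in the titles are shared between groups. Deviations from group means correlated at 0.061, 0.00301 and -0.00892 over the tested rows. A low correlation over all rows cannot exclude a link that touches few genes, so whether same-numbered libraries are paired was not settled. In the leave-one-out fits a lone library is assumed to vary like the other groups. Over the named genes, 3541 of 3948 values under alternatives kept direction and call, 304 lost and 103 gained a call, and no called value turned direction. A single pseudocount of 0.1 moved no count by more than 1.5 times. The snoRNA rows with whole reads rest on at most 38 reads a library. The cause of the shifts between settings was not tested.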
